A study of Homo sapiens with 17 samples.

Results

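The BCL2 family regulators of apoptosis were followed through proliferation, quiescence, senescence and transformation of human fibroblasts, at the level of the mRNA and of its translation. The members were chosen by gene symbol from a set of 10, made of 4 survival members (BCL2, BCL2L1, BCL2L2 and MCL1) and 6 death members (BCL2L11, BBC3, PMAIP1, BAX, BAK1 and BID). Rows were matched for 5 of these 10 among the 9699 genes of the table, namely BCL2L1, MCL1, PMAIP1, BAK1 and BID, and BCL2, BCL2L2, BCL2L11, BBC3 and BAX were not analysed here. All 5 matched members lay above the floor of 1 FPKM (read fragments scaled to the length of the mRNA and to the size of the library) in all 12 columns. The clearest pattern was that of PMAIP1, whose mRNA was 5.72-fold higher in senescent cells than in their control. Its ribosome footprints were 1.86-fold lower after 5 days of RAS and 2.64-fold higher after 14 days, each against its own control. Those controls, from different sequencing runs, themselves differed by 1.83-fold in PMAIP1 footprints. MCL1, whose protein PMAIP1 is known to bind, had 2.42-fold less mRNA in senescent than in transformed cells.

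BJ cells are a line of human skin fibroblasts, here immortalized by hTERT expression in every condition. RNA sequencing (RNA-Seq) of 9 samples and ribosome profiling (Ribo-Seq) of 8 samples covered the states of this report. Ribo-Seq reads the mRNA fragments that ribosomes protect from nuclease, and so measures translation. Quiescence was induced by serum depletion. Pre-senescent and senescent cells carried an inducible RASG12V, which 4-OHT-tamoxifen had switched on for 5 days in the former and for 14 days in the latter. Transformed cells expressed RASG12V from a retrovirus together with stable knockdowns of p53 and p16INK4A and with the SV40 small T antigen. The table gave 1 value per state and assay, so that no replicate spread, standard error or test could be computed, and it holds no read counts, so that no counting error could be given for single values. The columns named C12 (libraries C1 and C2), Q and, for RNA-Seq, preS are the authors' combined values of 2 libraries, and the other columns hold 1 library each. Proliferating, quiescent and pre-senescent cells shared a first sequencing run, and a second proliferating culture (C3) shared a later run with the senescent and transformed cells. Each state was therefore set against the proliferating column of its own run. The states of a run share that control, so their changes are not independent of each other. Per the study, the RNA-Seq libraries of the first run were paired-end sequenced and those of the later run were not. The difference between both proliferating columns carries culture, run and this sequencing mode together. It served as the only measure of what a change of this size is worth without a change of state.

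Apoptosis through mitochondria is decided on the outer mitochondrial membrane. BAK1 and its relative BAX form the pore that releases cytochrome c, BCL2L1 (Bcl-xL) and MCL1 bind and restrain them, and the BH3-only proteins such as PMAIP1 (Noxa) and BID engage the survival proteins or activate the pore formers directly. PMAIP1 is a known p53 target and acts chiefly through MCL1, a protein of short half-life whose supply depends on continued translation, while BID links the death receptors to mitochondria once caspases cleave it. Senescent fibroblasts are widely described as resistant to apoptosis.

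The labels of 2 Ribo-Seq libraries contradicted themselves. The library titled S was annotated as proliferating and the library titled C3 as senescent, whereas their titles and the column names say the reverse, and the titles were followed. In the Ribo-Seq column named S, MKI67, a proliferation marker, was at the floor of 1 FPKM and LMNB1, a lamin that is lost in senescence, was at 1.28 FPKM, against 43.02 and 88.11 FPKM in the column named C3. The RNA-Seq column named S gave 1 FPKM for both genes, and that named C3 gave 43.97 and 32.27 FPKM. CDKN1A, the p53-induced inhibitor of the cell cycle, was at 814.41 FPKM in senescent RNA and at 171.63 FPKM in its control. Its footprints were at 547.83 FPKM in the column named S and at 222.83 FPKM in that named C3. MKI67, LMNB1 and CDKN1A thus go with the titles, whereas CDKN2A footprints were lower in S, at 6.33 FPKM, than in C3. The condition labels serve below only as an alternative. CDKN2A has 1 row, which cannot separate p16INK4A from the other product of this locus, and read 12.64 FPKM in transformed RNA, 6.75 FPKM in its control and 17.19 FPKM in the control of run 1, with footprints of 5.51 FPKM in transformed cells and 8.92 FPKM in their control. HRAS lay between 1253.69 and 2415.28 FPKM in the RNA of all columns but the transformed one, where it was at 311.51 FPKM, and ESR1, the hormone receptor from which tamoxifen-inducible fusions are made, lay between 9.31 and 144.22 FPKM in those same columns and at the floor in transformed cells. The labels name the inducible construct only for pre-senescent and senescent cells. The transformed cells thus differed from their control by these construct signals as well as by their state, and the contributions cannot be told apart. All 10 fibroblast markers had a row and summed to between 5010 and 7500 FPKM of RNA per column, but single markers moved widely. Of the 10, 9 were at least 1.5-fold lower in senescent RNA than in its control (median log2 change -2.02, COL1A1 25.8-fold lower), 7 were lower in transformed RNA (median -0.91) and 7 in pre-senescent RNA (median -1.06), and 4 were higher in quiescent RNA, beside 22.7%, 11.6% and 6.82% of all genes lower and 19.9% in either direction in those comparisons. These counts depend on the control, and with that of the other run 5 were lower in senescent RNA (median -0.61), 4 lower and 4 higher in transformed RNA (median -0.13), and 7 lower and 1 higher in quiescent RNA (median -1.06), beside 29.2%, 12.3% and 10.9% of all genes lower. In pre-senescent RNA 8 were then lower and 1 higher (median -2.565), beside 13.9% of all genes lower. Between the proliferating columns 7 of the 10 were higher in run 2 (median 1.78). The part of this in the members' changes was not tested. Of the 14 epithelial, endothelial and blood markers only KRT19, between 1 and 39.76 FPKM, and CD14, between 1 and 1.67 FPKM, had rows. KRT19 was highest in the proliferating control of run 2, and the part of such cells in the results was not tested.

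BCL2L1 is a survival member, which binds and restrains the pore formers. Its mRNA was at 75.64 FPKM in proliferating cells of run 1, 74.68 in quiescent, 74.53 in pre-senescent, 63.48 in proliferating cells of run 2, 111.15 in senescent and 57.89 in transformed cells. Senescent cells stood above the other 5 columns, which lay within a narrow band. The senescent mRNA level was above that of its control by a log2 change of 0.81, whereas quiescent and pre-senescent cells differed from theirs by log2 values of -0.02 and -0.02. Between the proliferating columns BCL2L1 mRNA differed by 1.19-fold, and against the control of the other run the senescent excess was a log2 value of 0.56, just short of 1.5-fold. Its Ribo-Seq level was 34.10, 33.56 and 41.01 FPKM in proliferating, quiescent and pre-senescent cells of run 1, and 27.37, 38.51 and 18.65 FPKM in proliferating, senescent and transformed cells of run 2. Transformed cells were the lowest, at a log2 change of -0.55 from their control, and senescent cells were 2.06-fold above them. With 1 transcript counted per gene, the long and short splice forms of BCL2L1, which have opposite effects on survival, could not be separated.

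MCL1 protein turns over within a short time, and its footprints were the most abundant of the 5 members in every column. Its mRNA was at 69.84 FPKM in proliferating cells of run 1, 100.85 in quiescent, 110.63 in pre-senescent, 87.42 in proliferating cells of run 2, 71.29 in senescent and 172.56 in transformed cells. The transformed column was the highest by a clear margin, and the senescent column was the lowest of its run. MCL1 mRNA was 1.97-fold higher in transformed cells than in their control (log2 change 0.98), and 1.58-fold higher in pre-senescent cells than in theirs (0.66), beside a difference of 1.25-fold between the proliferating columns. Against the control of the other run the pre-senescent change was 0.34. In senescent cells the log2 change was -0.29. The Ribo-Seq level of MCL1 was 204.53, 297.44 and 281.35 FPKM in proliferating, quiescent and pre-senescent cells, and 187.70, 133.75 and 294.21 FPKM in proliferating, senescent and transformed cells of run 2. The footprints therefore followed the mRNA in their order within each run up to the close pair of quiescent and pre-senescent cells. Senescent cells were 2.20-fold below transformed cells in MCL1 footprints, and 93.2% of all genes lay below MCL1 in footprint level in the proliferating column of run 1.

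PMAIP1 encodes the smallest of the BH3-only proteins analysed here. Its mRNA was at 33.27 FPKM in proliferating cells of run 1, 38.26 in quiescent, 58.79 in pre-senescent, 28.12 in proliferating cells of run 2, 160.82 in senescent and 59.30 in transformed cells. Every RAS state was above every state without RAS induction, and senescent cells stood far above all others. The log2 change was 0.82 at day 5, 2.52 at day 14 and 1.08 in transformed cells, and the proliferating column of run 2 differed from that of run 1 by -0.24. A share of 3.58% of all genes changed as much as PMAIP1, in either direction, between senescent cells and their control. PMAIP1 footprints did not follow this order. They were at 19.70 FPKM in proliferating cells of run 1, 21.26 in quiescent, 10.59 in pre-senescent, 36.12 in proliferating cells of run 2, 95.40 in senescent and 61.76 in transformed cells. The pre-senescent column was thus the lowest of all in footprints, though only senescent and transformed cells had more of its mRNA. Both proliferating columns themselves differed by 1.83-fold in PMAIP1 footprints, which is about the size of the decrease at day 5 and larger than the 1.71-fold excess of transformed cells. The direction of the senescent footprint change rests on the column assignment by title, with which MKI67, LMNB1 and CDKN1A go. With the condition labels in its place the log2 change of 1.40 would be -1.40.

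Promoter sequence is shown for PMAIP1, whose mRNA moved most, and for BAK1. Both genes were higher in senescent RNA, but so was BCL2L1, and the windows shown are those that held a match to the motifs below. In the RefSeq windows of GRCh38.p14, from 250 bases before to 50 after the gene start, 3 motifs were searched on both strands: the p53 half-site, TGACGT (the core of a cAMP response element) and TGANTCA (the AP-1 site). Windows were matched for 4 of the 5 members. The PMAIP1 window, on the plus strand of chromosome 18, held TGACGT on the opposite strand at 56 bases before the start, and the BAK1 window, on the minus strand of chromosome 6, held a p53 half-site at 73 bases before the start. Capitals mark the motif with 5 bases on either side, read along the gene.
PMAIP1, chr18:59899935-59899950: tccctACGTCAccagg
BAK1, chr6:33580335-33580354: gggcgGGACATGCTCctggg
Of 35116 promoter windows, 7.98% hold TGACGT, 6.63% the p53 half-site and 7.71% TGANTCA, so that either match is a description of the window and not of a bound site. No other match to these motifs lay in the windows of PMAIP1, BAK1, BCL2L1 (2 windows) or BID (5 windows), which says only that these letters are absent there.

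BAK1, the pore former, was at 12.58, 10.49 and 15.92 FPKM of mRNA in proliferating, quiescent and pre-senescent cells of run 1, and at 13.94, 26.59 and 16.97 FPKM in proliferating, senescent and transformed cells of run 2. Senescent cells were the highest and stood 1.91-fold above their control (log2 change 0.93), beside a difference of 1.11-fold between the proliferating columns. Its footprints moved within a narrow band, with 9.58, 6.54 and 8.42 FPKM in run 1 and 8.47, 10.25 and 8.28 FPKM in run 2. The senescent column was again the highest and the quiescent the lowest, and the highest was 1.57-fold the lowest, against 2.53-fold in mRNA. The senescent footprint level was 1.21-fold that of its control. BAK1 had the lowest footprint level of the 5 members in all 6 columns.

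BID, the link from death receptors, was at 16.14, 14.68 and 20.62 FPKM of mRNA in proliferating, quiescent and pre-senescent cells, and at 14.85, 15.61 and 28.34 FPKM in proliferating, senescent and transformed cells of run 2. The transformed column alone stood apart, at 1.91-fold its control. BID footprints were at 81.07, 58.68 and 66.86 FPKM in run 1 and at 48.52, 37.48 and 77.85 FPKM in run 2. The transformed level was 1.60-fold that of its control, but the proliferating column of run 1 was at least as high, and BID footprints differed by 1.67-fold between the proliferating columns. Against the control of run 1 the log2 change in transformed cells was -0.06.

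Changes of at least 1.5-fold were then counted in each comparison and read against the same count over all genes, since a broad response would carry any gene list with it. In quiescence none of the 5 members passed 1.5-fold at the RNA level, where 19.9% of 9473 genes did. None passed in Ribo-Seq either (41.7% of all genes) or in translational efficiency, the log2 ratio of Ribo-Seq to RNA-Seq level, abbreviated TE (24.4%). The nearest were MCL1, at a log2 change of 0.53 in RNA and 0.54 in Ribo-Seq, and BAK1, at -0.55 in Ribo-Seq. Relative to the median of all genes MCL1 footprints, at 0.61, passed 1.5-fold. The result in quiescence depends on the control, since against that of run 2 MCL1 footprints were at 0.66, PMAIP1 footprints at -0.77 and PMAIP1 TE at -1.21, all past 1.5-fold.

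After 5 days of RAS, MCL1 and PMAIP1 mRNA were higher, that is 2 of 5 members, beside 12.6% of all genes (5.80% higher and 6.82% lower). In Ribo-Seq 1 of 5 members passed, PMAIP1, which was lower, beside 39.6% of all genes (16.3% higher and 23.3% lower). In TE 2 of 5 passed, PMAIP1 and BID, both lower, beside 36.0% of all genes (13.6% higher and 22.5% lower). The median of all genes was itself shifted here, by log2 values of -0.12 in Ribo-Seq and -0.15 in TE. Relative to it PMAIP1 was at -0.77 and -1.57, and BID TE at -0.48, short of 1.5-fold. BID TE was at -0.01 against the control of the other run. All 3 death members were above their control in mRNA and below it in footprints, but against the control of the other run BID footprints were at 0.46 and BAK1 footprints at -0.009. Both survival members were above it in footprints, with log2 changes of 0.27 for BCL2L1 and 0.46 for MCL1 that stayed short of 1.5-fold.

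At day 14, 3 of 5 members had mRNA at least 1.5-fold above the control, namely PMAIP1, BAK1 and BCL2L1, and none was lower, beside 41.4% of all genes (18.7% higher and 22.7% lower). Of the members only PMAIP1 passed in Ribo-Seq, where 50.5% of all genes did (21.0% higher and 29.5% lower), and the median of all genes was at -0.12. Relative to that median BCL2L1 footprints, at 0.61, passed as well, and against the control of run 1 BID footprints, at -1.11, and MCL1 footprints, at -0.61, passed too. The TE of PMAIP1 and BAK1 was lower by more than 1.5-fold, beside 30.7% of all genes (13.2% higher and 17.5% lower). The mRNA excess of PMAIP1 was called with a pseudocount, after centring and against the control of the other run, with log2 changes from 2.27 to 2.53. It also passed 2-fold and a threshold in local SDs, that is the spread of change among genes of similar level, and BAK1 and BCL2L1 passed neither of these.

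Transformed cells had higher mRNA for 3 of 5 members, MCL1, PMAIP1 and BID beside 24.8% of all genes (13.2% higher and 11.6% lower). The same 3 genes were at least 1.5-fold higher in Ribo-Seq, beside 29.4% of all genes (13.6% higher and 15.8% lower), and no member passed in TE (14.4%). The footprint excess of PMAIP1 was 1.71-fold, of BID 1.60-fold and of MCL1 1.57-fold. Against the control of the other run that of MCL1 was at a log2 change of 0.53, short of 1.5-fold, that of BID was at -0.06, and BCL2L1 footprints passed at -0.87. With the condition labels in place of titles PMAIP1 was at -0.63 and BCL2L1 at -1.05.

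Set directly against each other within run 2, senescent and transformed cells differed by at least 1.5-fold in the mRNA of all 5 members, beside 45.6% of all genes (18.5% higher in senescent cells and 27.1% lower). BCL2L1, PMAIP1 and BAK1 were higher in senescent cells, by 1.92-, 2.71- and 1.57-fold. MCL1 and BID were higher in transformed cells, by 2.42- and 1.82-fold. In Ribo-Seq 4 of 5 members passed in the same directions, beside 53.1% of all genes (22.9% higher and 30.1% lower), and BAK1 was at 1.24-fold. In TE only PMAIP1 of the 5 passed, being 1.76-fold lower in senescent cells, beside 23.7% of all genes (13.0% higher and 10.7% lower). With the condition labels in place of titles PMAIP1 footprints were lower in senescent than in transformed cells, by a log2 value of -0.77, and BCL2L1 footprints were higher by 0.55, short of 1.5-fold. In TE MCL1, higher in senescent cells, and BAK1, lower there, then passed 1.5-fold beside PMAIP1. In mRNA the survival members therefore divided between the RAS states, with BCL2L1 on the senescent and MCL1 on the transformed side, and so did the death members.

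The same counts between both proliferating columns show what culture, run and, in RNA-Seq and TE, the sequencing mode gave together. No member passed 1.5-fold in RNA-Seq (26.6% of all genes), while PMAIP1 was higher and BID lower in the Ribo-Seq of run 2, where 42.1% of all genes passed (21.4% higher and 20.7% lower). The same held in TE, where 26.5% passed (14.9% higher and 11.6% lower). PMAIP1 TE was 2.17-fold higher and BID TE 1.54-fold lower in run 2. The TE changes of these 2 genes have to be read beside those values.

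The members differed widely in TE, with BID first and MCL1 next in all 6 columns. RNA-Seq levels were computed by the authors over the whole transcript and Ribo-Seq levels over the coding sequence, so a TE of 0 marks no particular rate and each member is placed among all genes. BID had the highest TE of the 5 members in all 6 columns, from 1.26 in senescent to 2.33 in proliferating cells of run 1, and lay above 81.3% to 97.0% of genes. MCL1 ranged from 0.77 to 1.56, above 66.3% to 91.6% of genes. BCL2L1 lay low, from -1.63 in transformed to -0.86 in pre-senescent cells, with 4.55% to 13.1% of genes below it, and BAK1 was between -1.38 and -0.39. PMAIP1 ranged over 2.83 log2 units, the widest of the 5, from -2.47 in pre-senescent cells to 0.36 in proliferating cells of run 2. In the pre-senescent column 0.788% of genes had a lower TE than PMAIP1.

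The TE of PMAIP1 was lower than its control by 3.29-fold at day 5 (log2 change -1.72) and by 2.17-fold at day 14 (-1.12). The first was called at 2-fold, in local SDs, with a pseudocount, after centring and against the control of the other run. Its log2 changes ran from -2.83 to -1.57. Its Ribo-Seq column is a single library, where PMAIP1 was at 10.59 FPKM over a short coding sequence, with no counting error known. The first change was larger than the difference between the proliferating columns. The second was of the same size as that difference, and against the control of run 1 the log2 change was 0.003. In senescent cells the 5 members had log2 TE changes from -0.20 for MCL1 to -1.12 for PMAIP1, of which those of PMAIP1 and BAK1 passed 1.5-fold, and the median of all genes was -0.04. BID TE, at -1.07, and MCL1 TE, at -0.64, passed as well when the control of run 1 was used. With the condition labels in place of titles BCL2L1 TE in senescent cells was at -1.30 and MCL1 TE at 0.78. In transformed cells the 5 members had log2 TE changes from -0.25 to -0.42, none past 1.5-fold, with a median of all genes of -0.07, and against the control of run 1 PMAIP1 TE was at 0.82, MCL1 TE at -0.78, BID TE at -0.87 and BAK1 TE at -0.64, all past 1.5-fold. When the condition labels replaced the titles, the TE of PMAIP1, BCL2L1 and BAK1 in transformed cells was lower by more than 1.5-fold.

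The survival and death sides were next compared as sums of FPKM over the matched members. At the RNA level the survival members summed to 145 FPKM in proliferating cells of run 1, 176 in quiescent, 185 in pre-senescent, 151 in proliferating cells of run 2, 182 in senescent and 230 in transformed cells. The death members summed to 62.0, 63.4, 95.3, 56.9, 203 and 105 FPKM in that order. The ratio of survival to death mRNA lay between 1.94 and 2.77 in 5 columns and was 0.899 in senescent cells, where PMAIP1 alone made up 79.2% of the death side. In footprints the ratio was 2.16 in proliferating cells of run 1, 3.83 in quiescent, 3.75 in pre-senescent, 2.31 in proliferating cells of run 2, 1.2 in senescent and 2.12 in transformed cells. Senescent cells were the lowest in both assays, but kept more survival than death footprints, and quiescent and pre-senescent cells were the highest in footprints. With the condition labels in place of titles the senescent footprint ratio is 2.31, and the lowest, 1.2, is that of proliferating cells of run 2. MCL1 supplied 77.6% to 94.0% of the survival footprints. The sums lack the members that were not analysed, BCL2 and BAX among them, and in bulk samples fewer cells of a kind and less RNA per cell cannot be told apart.

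MCL1 and PMAIP1, which bind each other as proteins, were also set side by side. Their mRNA ratio was 2.10, 2.64 and 1.88 in proliferating, quiescent and pre-senescent cells, and 3.11, 0.443 and 2.91 in proliferating, senescent and transformed cells. The senescent column was the only one with more PMAIP1 than MCL1 mRNA per length. In footprints MCL1 exceeded PMAIP1 in every column, by 10.4-, 14.0- and 26.6-fold in run 1 and by 5.20-, 1.40- and 4.76-fold in run 2. The highest ratio was that of pre-senescent and the lowest that of senescent cells, so that both RAS time points lay at opposite ends. This order rests on the titles. With the condition labels in their place the senescent footprint ratio is 5.20, and the lowest, 1.40, is that of proliferating cells of run 2.

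The median RNA change of the death members exceeded that of the survival members by a log2 value of 0.68 in senescent, 0.51 in transformed and 0.03 in pre-senescent cells, and was below it by 0.39 in quiescent cells. With 2 survival and 3 death members these medians are descriptions of those genes.

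The other genes of the pathway were taken from fixed lists. Of 13 further BCL2 family genes 7 had rows. BCL2A1, a survival member, was at the floor of 1 FPKM of RNA in proliferating, senescent and transformed cells, at 3.08 FPKM in quiescent and at 6.33 FPKM in pre-senescent cells, that is at least 3.08- and 6.33-fold higher than in their control. BNIP3L, a mitophagy receptor related to the family, was 1.88-fold higher in quiescent RNA, but 1.11-fold higher against the control of run 2. In senescent cells 6 of the 7 were above the floor. Of these 1 was lower in RNA, BCL2L12, beside 22.7% of all genes, and 3 were lower in Ribo-Seq, beside 29.5% of all genes, led by BOK, a relative of BAK1, at a log2 change of -2.16. In TE 4 of the 6 were lower there and none higher, beside 17.5% of all genes lower. They were led by BOK at -1.86 and by BAD, a BH3-only protein, at -1.71. BAD TE was 2.83-fold higher in run 2 than in run 1 of the proliferating cells, however, and against the control of run 1 it was at -0.21 and BCL2L12 TE at -0.29 in senescent cells, while BOK was at -2.11.

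Downstream of the pore, 13 of 14 genes had rows. In senescent cells 4 were higher and 3 lower in RNA, beside 41.4% of all genes in either direction. With the control of run 1 in its place 3 were higher and 1 lower, beside 22.7% and 29.2% of all genes. HTRA2, a protease released through the pore, was 1.81-fold higher in RNA. BIRC5 (survivin), an inhibitor of apoptosis that is also needed in mitosis, was at 1.06 FPKM against 49.04 FPKM, a log2 change of -5.53, and APAF1, the scaffold on which caspases are activated, had a log2 change of -0.75. HTRA2 was at 0.49 and APAF1 at -0.17 against the control of run 1, both short of 1.5-fold. Against the control of its own run no gene of this list passed in pre-senescent RNA, where 12.6% of all genes did. In pre-senescent Ribo-Seq 3 were higher and 4 lower, beside 39.6% of all genes. These counts depend on the control. With that of run 2 in its place 3 were higher and 1 lower in pre-senescent RNA, and 3 higher and 7 lower in Ribo-Seq. Of 12 death receptor genes 9 had rows, and in senescent RNA TNFRSF10D, a decoy receptor, and TNFRSF10B, a receptor for the same ligand, were higher by log2 values of 2.30 and 1.06 and none was lower, beside 18.7% of all genes higher and 22.7% lower. The count was 5 of 9 against the control of run 1, beside 22.7% of all genes higher. Of the 8 outer membrane partners 3 were higher in senescent RNA, led by TSPO at a log2 change of 1.10, beside 18.7% of all genes, and none passed in transformed RNA, where 24.8% of all genes did. Among 8 of 9 genes that modify MCL1 or BH3 proteins 1 was higher in senescent RNA, BTRC at 1.10, beside 18.7% of all genes. In Ribo-Seq 4 were higher, beside 21.0% of all genes. FBXW7, part of a ubiquitin ligase that targets MCL1, had a log2 change of 1.94 there. Its footprints were at 4.71 FPKM in senescent cells and at 1.23 FPKM, near the floor, in their control. Set against the control of run 1, 3 of these genes were higher and 1 lower in senescent RNA, beside 22.7% and 29.2% of all genes. In Ribo-Seq 3 were then higher, beside 27.9%.

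Genes known as p53 targets outside the family were examined because PMAIP1 is one itself. Of 15 such genes 13 had rows, and in senescent RNA 10 of 13 were higher and none lower, with a median log2 change of 0.95 (all genes -0.02, and 18.7% of them higher). In transformed RNA, where p53 was knocked down, none was higher and 7 of 13 were lower, with a median of -0.63 (all genes 0.09, and 11.6% of them lower). The proliferating column of run 2 was itself above that of run 1 for these genes, with 5 of 13 higher, 3 lower and a median of 0.45, beside 26.6% of all genes in either direction. Against the control of run 1, an alternative added after seeing the data, 5 of 13 were lower and 1 higher in transformed RNA, with a median of -0.19, beside 12.3% of all genes lower and 14.7% higher. In senescent RNA 11 were higher and 1 lower against that control, with a median of 1.41, beside 22.7% of all genes higher and 29.2% lower. CDKN1A was 4.75-fold higher in senescent cells and had a log2 change of -1.10 in transformed cells, which was -0.008 against the control of run 1. PMAIP1 was above its control in both, at log2 changes of 2.52 and 1.08, so that its change in transformed cells had the opposite sign to the median of the list. BAK1 was above its control in both states as well, at 0.93 and 0.28.

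The genes whose changes were most like those of a member were sought for the 3 members with the widest range of RNA change, by the Euclidean distance over 8 log2 changes (4 in RNA-Seq and 4 in Ribo-Seq) among 8413 other genes. For PMAIP1 these were DUSP5, a phosphatase that acts on ERK, at a distance of 1.15, TBKBP1 at 1.42 and UPP1 at 1.42, with a median of 3.64 over all genes. DUSP5 shared the RNA changes at day 5 and day 14, with log2 values of 1.00 and 1.95, but at day 5 its footprints were at -0.02, whereas those of TBKBP1 and UPP1 were at -0.67 and -0.85. For MCL1 the nearest was IER2, an immediate early gene, at a distance of 0.60 (median 2.26), followed by TWF2 and RIN1. For BAK1 the nearest were NECAP1 at 0.26, PSMB5, a proteasome subunit, at 0.28 and QDPR at 0.31 (median 1.86). The changes of a run share their control column, which enters every such distance.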

How the data were processed

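RNA-Seq and Ribo-Seq of BJ fibroblasts were deposited as 1 table of FPKM values with 12 columns. Per the study's methods, the authors aligned reads with Bowtie to 1 protein-coding transcript per gene, kept unique matches, and computed FPKM over the transcript (RNA-Seq) or coding sequence (Ribo-Seq). The submitters' processing notes name hg19. The deposited FPKM values have a floor of 1, and no column of other samples was present.

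From these, log2 differences were taken within a sequencing run, with no added pseudocount. Genes above the floor in at least 1 of the columns compared entered (for TE, in all 4), and a change of 1.5-fold was called. With 1 column per state no test was possible. Local SDs were taken over 20 bins of mean level. Alternatives are given in the closing section. Scripts (Python 3.11.15, pandas 2.3.3, numpy 2.4.6) were tested on simulated data. The authors kept transcripts with a minimum of reads in at least 1 condition. Read counts were not in the table, so no counting error is given. Groups followed sample titles. All members, the genes nearest to 3 of them and, from each list, only some of those with the largest changes were named. Members and lists were chosen with earlier results of these data known. Values of 2 further genes are not reported here.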

Additional observations from a re-analysis of the deposited data

Results flagged for a closer look

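PMAIP1 footprints moved in opposite directions at the 2 times of RAS induction. The log2 change in Ribo-Seq was -0.90 in pre-senescent cells and 1.40 in senescent cells, each against the proliferating control of its run. Each side rests on a single test library, the difference between them was not tested, and it spans both sequencing runs, between whose controls PMAIP1 footprints differed by a log2 value of 0.88.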

How the results depend on the processing

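Of 660 single values recomputed under the alternatives, 579 kept their side of the threshold, 52 fell short of it, 21 newly passed it and 8 that were past it before or after changed sign. In all 33 changed sign, most of them short of 1.5-fold in both fits, and the 660 count in values that a setting cannot touch. A pseudocount of 1 FPKM, no filter and a minimum of 5 FPKM changed none of the calls of the 5 members. The number of member changes past the threshold, of 20 in each measure, was 8 in RNA-Seq, 5 in Ribo-Seq and 4 in TE, beside 24.7%, 40.3% and 26.3% of all genes over the same 4 comparisons. It was 2, 1 and 2 at 2-fold (10.3%, 19.0% and 7.85% of all genes) and 2, 0 and 1 past the threshold in local SDs (7.10%, 7.16% and 7.37%). With the control of the other run it was 6 in RNA-Seq, 8 in Ribo-Seq and 9 in TE (33.5%, 49.4% and 35.3% of all genes), and with the condition labels in place of the titles of the Ribo-Seq libraries S and C3 it was 9 in TE (43.6%). Against the control of the other run 4 RNA-Seq, 5 Ribo-Seq and 6 TE changes of the 20 in each changed sign, and those past 1.5-fold in either fit were PMAIP1 in quiescent Ribo-Seq (-0.77, 0.11 in its own run), BID in transformed Ribo-Seq (-0.058), and PMAIP1 TE in senescent (0.003) and transformed cells (0.82). With the condition labels every Ribo-Seq change of senescent cells against the control changes sign by construction. Among changes past the threshold, PMAIP1 Ribo-Seq turned to -1.40 in senescent and -0.63 in transformed cells and to -0.77 between them, and MCL1 TE in senescent cells to 0.78. These follow from which column serves as control, and a cause beyond that was not tested. The median of all genes moved by up to -0.15 (TE, pre-senescent) and centring on it left 7 Ribo-Seq and 3 TE changes past the threshold. No paired analysis was possible because the columns carry no replicate numbers, and no replicate could be left out. The table holds no read counts, so no counting error could be given, either for BAK1, the lowest in footprints, or for PMAIP1. FPKM is scaled to length, so a short coding sequence such as that of PMAIP1 holds fewer reads at a given level.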
